A study of Homo sapiens with 7 samples.

Results

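The clustered protocadherins are cadherin-type adhesion proteins encoded side by side on chromosome 5 in an alpha, a beta and a gamma cluster. They were taken as all non-control probes whose gene name on the array begins with PCDHA, PCDHB, PCDHGA, PCDHGB or PCDHGC followed by a digit or the letter C, which gave 50 of the 36337 gene names, 15 alpha, 18 beta and 17 gamma, on 58 of 50599 probes. The samples were 4 replicates of HCT116, a near-diploid human colon carcinoma line, here carrying the histone fusion H2B-GFP, all treated with 10 nM bafilomycin A1, an inhibitor of the vacuolar proton pump, for 30 h. From each, 100 ng of total RNA was labelled with Cy3 for 1 Agilent array; the labels give 10% FBS as the serum, whereas the methods name a lower share of FCS. The 4 arrays lay on 1 slide, scanned on 1 day, so neither could be tested as a batch. The values describe treated cells, and no effect of bafilomycin A1 can be read from them, since the 3 untreated samples are not analysed here. The methods speak of independent biological replicates for the experiments evaluated statistically, but the labels do not say how these 4 were grown, so their spread may be technical.

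In the alpha and gamma clusters each gene has its own large variable exon with its own promoter, and the transcript is spliced from there to constant exons shared by the whole cluster. Beta genes consist of the variable exon alone. Neurons choose a few of these promoters per cell, with the help of the DNA-binding protein CTCF and of cohesin, and the proteins on the surface let a neuron tell its own branches from those of others. Outside the nervous system most of the promoters are known to be silent and methylated, and in colorectal tumours the region is known for methylation over a long stretch of DNA.

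The array therefore offered readouts of different kinds, and the probes are shown here because they decide what each value counts. Of the 58 probes, 2 lay past the variable probe of the last gene of their cluster, PCDHAC2 or PCDHGC5, and are called constant-region probes. The other 56, with all beta probes among them, are called variable. These calls rest on probe positions on GRCh37, since the files give no exon numbers. A variable probe therefore need not lie within a variable exon. Every one of the 15 variable alpha probes and 21 of the 22 variable gamma probes were designed on a RefSeq record that the files call transcript variant 2. The letters GTNAGT cover some but not all forms of a splice donor. They occurred as printed in 8 of the 15 variable alpha probes, in 3 of 19 beta probes and in 3 of 22 variable gamma probes. Of all probes of 60 bases, 3.96% held these letters. On the other strand (ACTNAC) they occurred in 0 of these 56 probes, in both constant-region probes and in 4.29% of all probes. The match is a description and does not show that the letters act as a donor. Nor do the counts say how many probes cross the end of an exon. The sequences below run 5′ to 3′ on the plus strand, with GTNAGT in capitals.
PCDHA5, variable, chr5:140203700-140203759: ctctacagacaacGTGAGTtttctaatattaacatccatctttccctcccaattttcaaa
PCDHA7, variable, chr5:140216279-140216338: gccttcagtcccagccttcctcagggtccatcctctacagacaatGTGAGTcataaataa
PCDHA11, variable, chr5:140251062-140251121: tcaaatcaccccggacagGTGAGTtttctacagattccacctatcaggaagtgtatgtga
PCDHA11, constant region, chr5:140390896-140390955: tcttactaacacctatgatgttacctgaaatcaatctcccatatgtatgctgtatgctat
PCDHGA7, variable, chr5:140764880-140764939: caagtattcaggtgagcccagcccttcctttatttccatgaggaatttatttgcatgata
PCDHGA8, variable, chr5:140774868-140774927: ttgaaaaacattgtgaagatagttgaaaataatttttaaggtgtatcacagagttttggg
PCDHGA8, constant region, chr5:140892394-140892453: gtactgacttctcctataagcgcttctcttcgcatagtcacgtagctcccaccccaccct

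The motif started at base 14 of the PCDHA5 probe, at base 46 of the PCDHA7 probe and at base 19 of the variable PCDHA11 probe. The constant-region probes carry the names PCDHA11 and PCDHGA8, but the files list several genes for each. The files list at most 4 entries per probe, counting all databases, so these lists can be incomplete, also where they name 1 gene. The alpha one is listed for PCDHA9, PCDHA11, PCDHAC1 and PCDHAC2, and the gamma one for PCDHGA2, PCDHGA8, PCDHGA11 and PCDHGA12. In all, 50 probes were listed for 1 gene and 8 for several. PCDHB3, PCDHGA1, PCDHGA4, PCDHGA6, PCDHGA10, PCDHGA11 and PCDHGB5 had no probe of their own name and appeared only in such lists.

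With the probes of this array, most of the clustered protocadherin genes gave no signal well above background in the treated HCT116 cells. Nearly all variable alpha and gamma probes were designed on transcript variant 2. Whether they read the transcripts spliced to the constant exons was not tested, so the counts below hold for these probes. A probe was called detected on an array when over 50% of its spots carried the flag of the scanner software for a signal well above background, and a gene when at least 1 of its probes was. On this rule 9 of the 50 genes were detected on all 4 arrays, against 54.2% of all genes, and 10 of the 58 probes against 50.7% of all probes. A further 5 genes were detected on some of the arrays, so that 14 of 50 were detected on at least 1 array, against 64.8% of all genes. The other 36 genes were detected on none. With a laxer flag of the same software, for a signal positive and significantly different from background, 18 of the 50 genes passed on all 4 arrays, against 67.5% of all genes. The 9 genes added were PCDHAC2, PCDHB2, PCDHB8, PCDHB10, PCDHB14, PCDHGB1, PCDHGB4, PCDHGB7 and PCDHGC4.

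The 3 clusters all lay below the share of the whole array. Detected on all 4 arrays were 3 of 15 alpha, 2 of 18 beta and 4 of 17 gamma genes, or 20%, 11.1% and 23.5%. Of the genes detected on no array, 11 were alpha, 15 beta and 10 gamma. With so few genes these shares are given as a description, and no difference between the clusters was tested. Without the 2 constant-region probes the counts were 2, 2 and 3, and with only the probes listed for 1 gene they were 2, 2 and 1. The number of member probes detected was 15, 12, 13 and 11 on replicates 1 to 4, where 60.4%, 58.9%, 58.5% and 55.6% of all non-control spots were well above background.

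**Figure D1:**
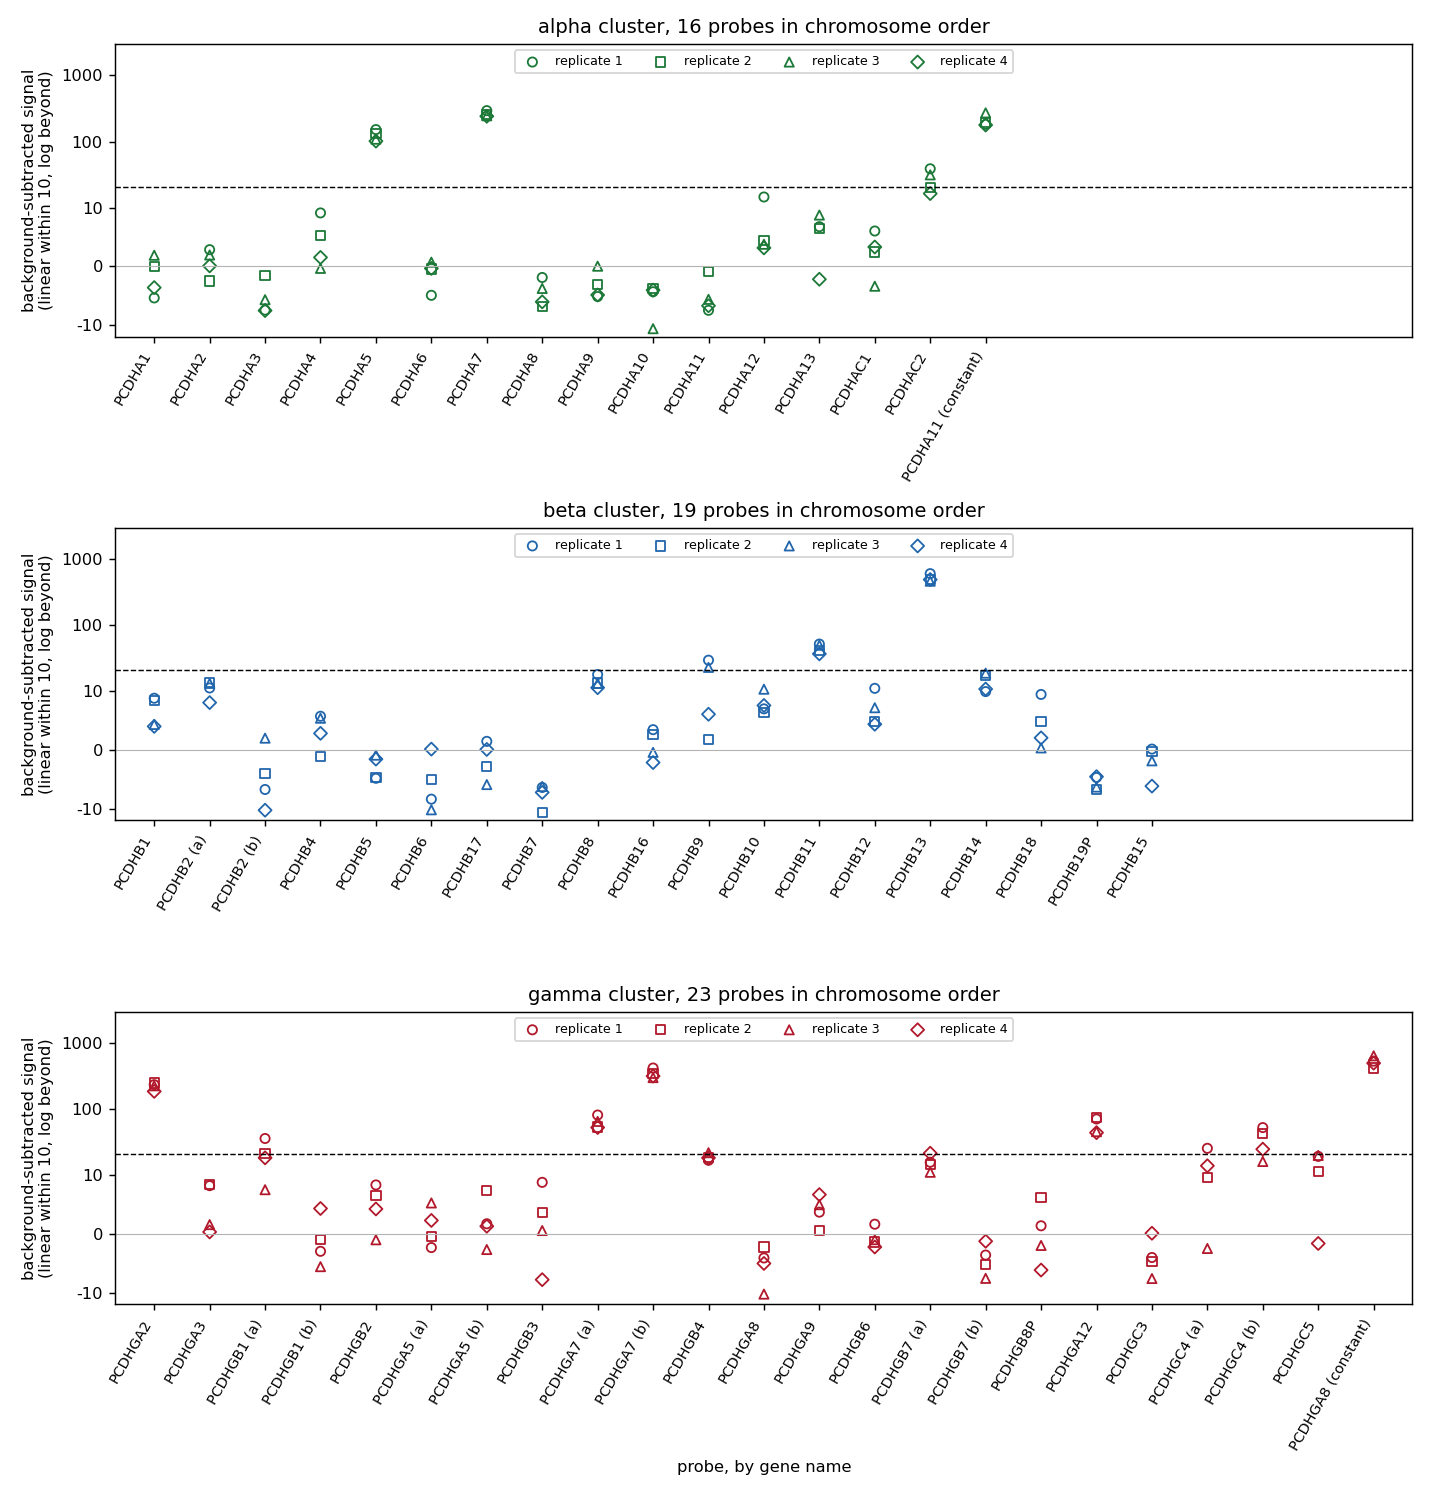
Background-subtracted signal (y axis, linear within 10 and logarithmic beyond) of the 58 probes of the clustered protocadherins in chromosome order (x axis), with 1 symbol per replicate and the letters a and b for probes of the same gene. The dashed line marks 20.8, the lowest signal well above background on any of the 4 arrays. A few probes stand clear of it on all 4 arrays, among them PCDHA5, PCDHA7, PCDHB13, PCDHGA2 and both constant-region probes, while most lie around 0.

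Signals below are background-subtracted scanner units for replicates 1, 2, 3 and 4 in that order, and levels are log2 signals minus the median of the array, given as mean ± SD over the 4 arrays. Brightness depends on the probe, so no level is set against that of another probe. Of the alpha genes, which encode receptors with a constant cytoplasmic tail, PCDHA5 gave 152, 132, 108 and 101.4, a level of 0.80 ± 0.17 (SD, n = 4). PCDHA7 gave 294, 256, 245 and 241, a level of 1.88 ± 0.059 (SD, n = 4). Their probes lie 12.5 kb apart, and the probe of PCDHA6 between them was detected on no array. PCDHAC2, a C-type gene at the end of the row, gave 38.6, 20.05, 31.2 and 16.3 and was well above background on replicates 1 and 3 only.

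The constant-region probe named PCDHA11 lies 42.0 kb past the probe of PCDHAC2. It gave 182, 197, 272 and 178, a level of 1.54 ± 0.30 (SD, n = 4), highest on replicate 3. The variable probe of PCDHA11 gave -7.51, -0.832, -5.65 and -6.74, below 0 on every array. Of the other genes listed for the constant-region probe, PCDHA9 and PCDHAC1 were detected on no array, and PCDHA5 and PCDHA7 are not among its 4 listed entries, which is the most the files give. The detection of the name PCDHA11 rested on this probe alone, and the files do not tie its signal to a single variable exon.

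Among the beta genes PCDHB13 gave 608, 501, 467 and 494, a level of 2.88 ± 0.11 (SD, n = 4). PCDHB11 gave 52.1, 41.7, 50.05 and 37.1, a level of -0.65 ± 0.14 (SD, n = 4), below the array median but well above background on all 4 arrays. Their probes lie 14.3 kb apart, with that of PCDHB12, detected on no array, between them. PCDHB9 gave 29.7, 1.75, 23.1 and 6.11, well above background on replicates 1 and 3 and close to 0 on the others. Its replicates spanned 15.4-fold, so its mean level carries little information.

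Among the gamma genes PCDHGA2 gave 236, 249, 226 and 187, a level of 1.67 ± 0.12 (SD, n = 4). PCDHGA7 was measured by 2 probes, both detected on all 4 arrays. The probe listed for PCDHGA7 alone gave 422, 344, 302 and 319, a level of 2.29 ± 0.14 (SD, n = 4). The probe listed for PCDHGA7 and PCDHGA8 gave 81.8, 54.0, 65.5 and 53.0, a level of -0.16 ± 0.20 (SD, n = 4). PCDHGA12, whose probe is also listed for PCDHGA10, gave 71.3, 75.2, 45.8 and 44.2, a level of -0.29 ± 0.34 (SD, n = 4). Replicates 1 and 2 lay above replicates 3 and 4 for this gene. The constant-region probe named PCDHGA8 gave 536, 423, 645 and 499.7, a level of 2.89 ± 0.26 (SD, n = 4), again highest on replicate 3. The variable probe of PCDHGA8 gave -4.09, -2.22, -10.5 and -5.02, below 0 on every array, so this name too rests on the constant region.

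The remaining gamma genes with any detected probe were at the limit. PCDHGB1 gave 36.1, 21.5, 7.54 and 18.4 with 1 probe, well above background on replicates 1 and 2, and -2.95, -0.972, -5.57 and 4.34 with the other. PCDHGB4, by a probe also listed for PCDHGB5, gave 16.9, 18.7, 22.0 and 18.4 and was well above background on replicate 3 only. PCDHGC4, a C-type gene, gave 52.8, 43.4, 16.2 and 24.9 with 1 probe, well above background on replicates 1, 2 and 4. Its other probe gave 25.6, 9.58, -2.47 and 13.9, well above background on replicate 1 only. For PCDHGB1 and PCDHGC4 replicate 1 was the highest and replicate 3 the lowest with the brighter probe.

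The 36 genes detected on no array were PCDHA1, PCDHA2, PCDHA3, PCDHA4, PCDHA6, PCDHA8, PCDHA9, PCDHA10, PCDHA12, PCDHA13 and PCDHAC1 in the alpha cluster. In the beta cluster they were PCDHB1, PCDHB2, PCDHB4, PCDHB5, PCDHB6, PCDHB7, PCDHB8, PCDHB10, PCDHB12, PCDHB14, PCDHB15, PCDHB16 and the pseudogenes PCDHB17, PCDHB18 and PCDHB19P. In the gamma cluster they were PCDHGA3, PCDHGA5, PCDHGA9, PCDHGB2, PCDHGB3, PCDHGB6, PCDHGB7, PCDHGC3, PCDHGC5 and the pseudogene PCDHGB8P. Their 39 probes gave 156 values from -11.5 to 21.6, with a median of 0.579, and 69 of these values were at or below 0. The highest single values were 14.4 for PCDHA12, 18.9 for PCDHB14 and 21.6 for PCDHGB7. The 308 negative-control spots of each array had medians between -6.76 and -4.66, and their 95th percentiles lay between 1.24 and 4.08. Of all 58 member probes, 35, 35, 27 and 29 lay above the 95th percentile of the negative controls on replicates 1 to 4. The same count was not made over all probes of the array, so these counts cannot be called low or high. The 36 genes were not well above background with these probes at this sensitivity, which does not show that their RNA is absent.

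**Figure D2:**
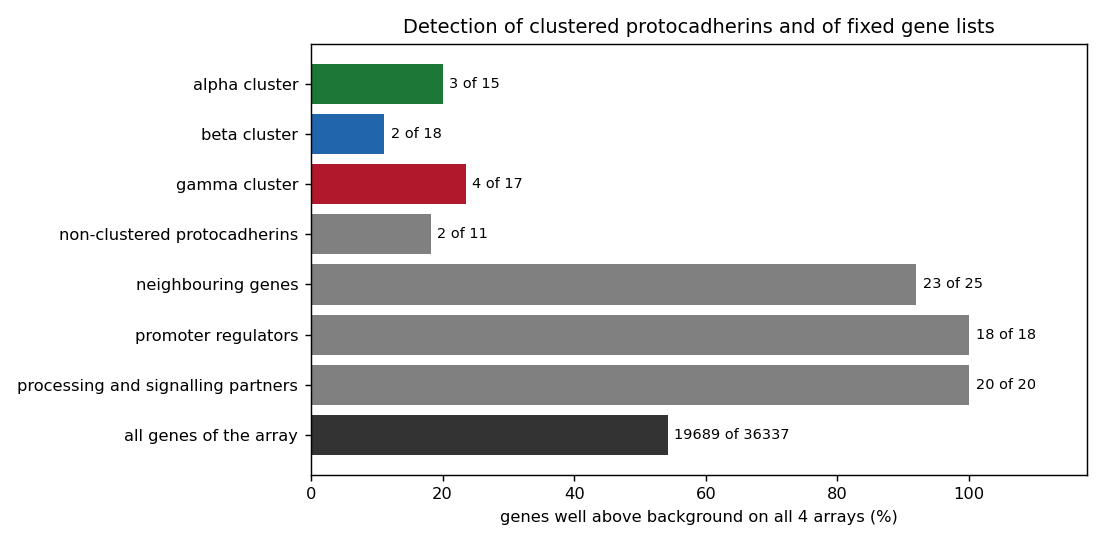
Share of genes well above background on all 4 arrays (x axis, percent, starting at 0) in the alpha, beta and gamma clusters, in the comparison lists and among all genes of the array, with the counts beside each bar. The clusters lie at 20%, 11.1% and 23.5%, and all genes at 54.2%.

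The clusters are flanked and interrupted by other genes, which were mostly detected. Of 25 neighbouring genes, 23 were well above background on all 4 arrays, the exceptions being SLC25A2, detected on 1 array, and PCDH12, detected on none. TAF7, a subunit of the general transcription factor TFIID, and SLC25A2, a mitochondrial ornithine transporter, are single genes set between the beta and gamma clusters. TAF7 had a level of 6.72 ± 0.20 and SLC25A2 of -2.31 ± 1.01 (SD, n = 4). ZMAT2, a spliceosome protein on the alpha side, had a level of 5.07 ± 0.21 (SD, n = 4). On the gamma side DIAPH1, a formin that builds actin filaments, had a level of 4.18 ± 0.23, and HDAC3, a histone deacetylase, of 6.62 ± 0.17 (SD, n = 4). The level of DIAPH1 lies between probes that disagreed, both detected on all 4 arrays. The brighter probe gave levels of 7.84, 8.12, 8.16 and 7.93, and the other 0.61, 0.85, 4.72e-05 and -0.046.

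Of 11 protocadherins outside the clusters, 2 were well above background on all 4 arrays. PCDH1, an epithelial protocadherin, had a level of 3.37 ± 0.27, and PCDH19 of 0.82 ± 0.67 (SD, n = 4). The PCDH1 level lies between 2 probes that disagreed, both detected on all 4 arrays. The brighter probe gave levels of 7.14, 7.28, 7.34 and 7.17, and the other -0.81, -0.45, 0.14 and -0.82. The PCDH19 level rests on 1 of 2 probes. Its other probe gave signals of -2.39, -4.65, -11.1 and -0.826, below 0 on every array. All 18 genes of a list of known regulators of protocadherin promoters were detected on all 4 arrays. In this list CTCF had a level of 2.81 ± 0.25, the cohesin subunit RAD21 of 7.28 ± 0.25 and SMCHD1, a silencing protein, of 2.83 ± 0.37 (SD, n = 4). The probes of SMCHD1 disagreed, though all were detected on all 4 arrays. Their levels ran from 2.84 to 3.41, from 2.50 to 3.35 and from -1.55 to -0.67. Of the DNA methyltransferases, DNMT1 had a level of 4.25 ± 0.28 (SD, n = 4). DNMT3B was measured by 2 probes that disagreed. The probe detected on all 4 arrays gave levels of 3.44, 3.70, 4.12 and 3.60, and the other, detected on 1 array, gave -4.76, -3.82 and -0.94 on replicates 1, 2 and 4 and a signal below 0 on replicate 3. The median over both was 1.18 ± 2.13 (SD, n = 4), 3.72 with the detected probe alone and 0.20 without replicate 3. All 20 genes of a list of proteins that cleave or signal for the protocadherins were detected as well. ADAM10, the protease that sheds their outer part, had a level of 3.91 ± 0.15 (SD, n = 4). The labelled colon carcinoma line was checked with 8 epithelial markers, of which EPCAM, CDH1, KRT8, KRT18, KRT19 and CDX2 were detected on all 4 arrays and VIL1 and LGR5 on none. Of 4 neural markers, RBFOX3 and MAP2 were detected on all 4 arrays, GFAP on 1 and SYP on none. Of the markers of other cell types, PTPRC (blood) and COL1A1 (fibroblast) were detected on all 4 arrays, and COL1A2, PDGFRB and PECAM1 on none.

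The spread between replicates was small for most of the detected genes. The median SD of the 9 genes was 0.140, against 0.205 over the 19689 genes of the array detected on all 4 arrays. The replicates spanned more than 1.4-fold, the threshold that the methods use for a change, in 3 of the 9 genes, against 45.6% of the detected genes. These 3 were PCDHA11 and PCDHGA8, both by their constant-region probes, and PCDHGA12, with spans of 1.64, 1.52 and 1.64. The mean deviation of the detected genes of a cluster from their own means was taken for each array. Its SD over the arrays was 0.044 for 3 alpha genes, 0.068 for 2 beta genes and 0.057 for 4 gamma genes. Over all detected genes this SD was 0.065, but a mean over so many genes is not like a mean over a few. The alpha and gamma means also join constant-region and variable probes. Taken apart, the SD was 0.092 for the 8 detected variable probes and 0.258 for the 2 constant-region probes.

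Within the clusters, however, the constant-region and the variable probes did not run together. On replicate 3 the 2 constant-region probes lay 0.36 above their own means on average, and the 8 detected variable probes lay at -0.084. On replicate 1 the order was the other way round, with -0.20 for the constant-region and 0.11 for the variable probes. Both constant-region probes and 1 of the 8 variable probes, that of PCDHB11, had their highest level on replicate 3, against 50.6% of all probes detected on all 4 arrays. Over the 12187 detected probes within the level range of these members, the mean deviation on replicate 3 was 0.020. How many of those probes deviated as far as the constant-region probes was not counted. The deviations of the 8 variable probes on replicate 3 ran from -0.33 to 0.16 and those of the constant-region probes from 0.31 to 0.41. This comparison was chosen after the values were seen, with 2 probes on one side, and no cause was tested.

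**Figure D3:**
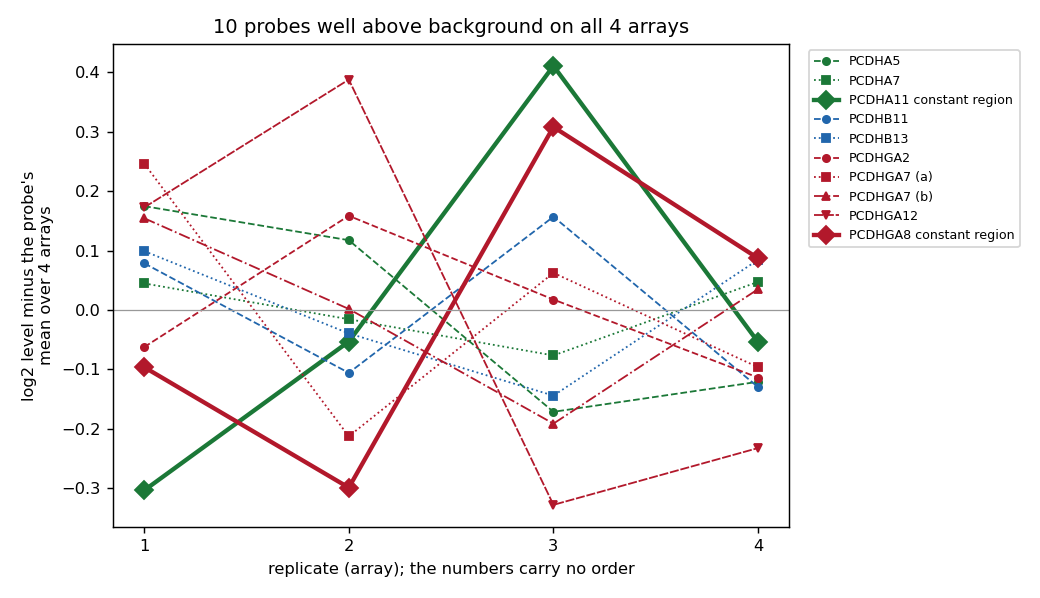
Log2 level minus the mean of the probe over 4 arrays (y axis) for the 10 probes well above background on all 4 arrays, by replicate (x axis, an arbitrary order); thick lines with diamonds are the constant-region probes, thin lines the variable probes, in green for alpha, blue for beta and red for gamma. The constant-region probes reach 0.41 and 0.31 on replicate 3, above the 8 variable probes.

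Near-identical exons raise the question of which gene a probe reads. The longest exact run shared by the probes of PCDHB13 and PCDHB2 was 23 bases, and that of PCDHGA2 and PCDHGA3 was 24 bases. The runs are shown here in capitals because only 1 probe of each pair was detected. Past a differing base the PCDHB13 and PCDHB2 probes match again, so their capitals understate how alike they are.
PCDHB13, chr5:140595978-140596037: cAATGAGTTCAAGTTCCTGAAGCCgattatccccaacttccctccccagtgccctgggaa
PCDHB2, chr5:140476664-140476723: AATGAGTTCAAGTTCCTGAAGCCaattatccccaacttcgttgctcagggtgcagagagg
PCDHGA2, chr5:140720840-140720899: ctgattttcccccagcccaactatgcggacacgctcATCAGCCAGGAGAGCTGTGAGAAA
PCDHGA3, chr5:140725938-140725997: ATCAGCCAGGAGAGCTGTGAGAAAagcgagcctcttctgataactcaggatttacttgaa

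The PCDHB2 probe, also listed for PCDHB3, gave 11.3, 13.6, 13.2 and 8.09 and was detected on no array, beside 608, 501, 467 and 494 for PCDHB13. The PCDHGA3 probe, also listed for PCDHGA4 and PCDHGA6, gave 8.23, 8.39, 1.60 and 0.345 and was detected on no array. The PCDHGA2 probe is listed for PCDHGA1, PCDHGA2, PCDHGA3 and PCDHGA11, so its signal cannot be assigned to PCDHGA2 alone. The detected genes with a probe listed for 1 gene were PCDHA5, PCDHA7, PCDHB11, PCDHB13 and PCDHGA7.

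Among genes whose promoters could be read, some detected and undetected ones carried the same element. The promoters of clustered protocadherins are known for a short conserved element around the letters CGCT, with a different surrounding in each cluster. RefSeq promoter windows of GRCh38.p14, 250 bases before to 50 after the start of a gene, were held for 40 of the 50 array names and for 47 clustered protocadherin genes in all. On either strand ATGTCGCT occurred in 9 of 13 alpha genes and in 0.234% of all windows. GTGGCGCT occurred in 13 of 14 beta genes, all but PCDHB1, and in 1.15% of all windows. CGCTGT occurred in 17 of 20 gamma genes, in 7 alpha genes, in 1 beta gene and in 11.2% of all windows. CGCT itself, which all of these contain, occurred in 46 of the 47 genes but also in 70.0% of all windows. The stretches below, on the plus strand with CGCT in capitals, set a gene detected on all 4 arrays beside a gene detected on none. No such pair of the same cluster was closer, though the gamma pair has a tie given below.
PCDHA7, detected, chr5:140834176-140834199: gccacatgatgtCGCTctttaccg
PCDHA4, not detected, chr5:140806983-140807006: gccacatgatgtCGCTctttacca
PCDHB13, detected, chr5:141213869-141213892: gacgcgtggtggCGCTgcaggata
PCDHB12, not detected, chr5:141208647-141208670: gacgcgtggtggCGCTgcaggata
PCDHGA2, detected by a probe also listed for other genes, chr5:141338707-141338730: gcctctgagcgtCGCTgttgacca
PCDHGA5, not detected, chr5:141364111-141364134: gactctgagtgtCGCTgttgacca

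The 24 bases of PCDHB13 and PCDHB12 did not differ, those of PCDHA7 and PCDHA4 differed at 1 base and those of PCDHGA2 and PCDHGA5 at 2 bases. PCDHGA3, also detected on none and listed for the PCDHGA2 probe, differed from PCDHGA2 at 2 bases as well. The letters CGCT of the element began 38 bases before the start of PCDHB13 and 60 before that of PCDHB12. The other detected genes with such a stretch lay farther from the nearest gene detected on none. PCDHA5 differed from PCDHA1 at 3 bases, PCDHGA7 from PCDHGA9 at 4 bases and PCDHGA8 from PCDHGA9 at 5 bases. Of the probes named PCDHGA8 only the constant-region one was detected, and a detected PCDHGA7 probe is also listed for PCDHGA8. The match is of letters only, and no binding or methylation was measured. PCDHB11 and PCDHGA12 had no window.

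PCDHB1, the gene at the start of the beta cluster and the 1 beta gene of 14 without GTGGCGCT, was the member measured most often on each array, by 10 spots of 1 probe. None of its spots was well above background on any array, but they fell into separate groups by their place. On replicate 1 the 5 spots in array columns up to 69 gave -4.69 to 5.22 and the 5 spots from column 75 on gave 15.2 to 20.4. On replicate 2 these ranges were -0.285 to 3.02 and 10.2 to 18.9. On replicate 3 they were -8.75 to 0.137 and 6.77 to 20.6, and on replicate 4 -6.42 to 2.81 and 7.62 to 11.3. The ranges overlapped on none of the 4 arrays. Of 76 probes printed as 10 spots with no spot well above background and at least 3 spots on each side, PCDHB1 was the 1 probe with all right-hand spots above all left-hand spots on all 4 arrays. All were split at column 72, which lies in the gap of PCDHB1, so the count does not treat PCDHB1 and the others alike. The medians of the negative-control spots on the left and right differed by far less, for example -6.82 and -6.76 on replicate 1. This split was chosen after the values were seen, and what it comes from was not tested. It did not touch the detection call, but it limits what a mean of dim spots can say.

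**Figure D4:**
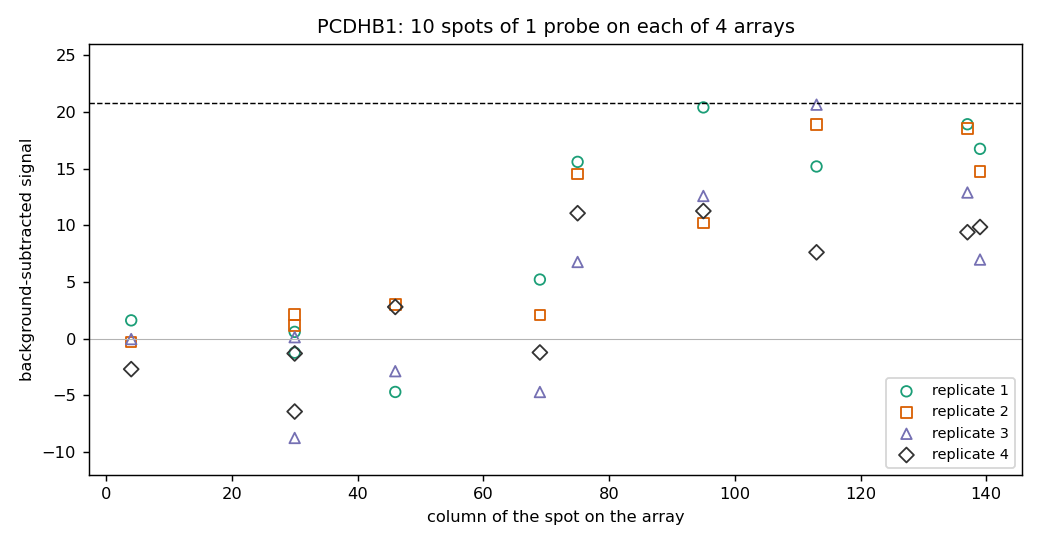
Background-subtracted signal (y axis) of the 10 spots of the PCDHB1 probe against the array column of the spot (x axis), with 1 symbol per replicate; the dashed line is 20.8, the lowest signal well above background on any array. The spots up to column 69 lie at or below 5.22 and those from column 75 on at or above 6.77.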

How the data were processed

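Per the submitters' notes, Agilent Feature Extraction 10.7.3.1 wrote each scanner file. The deposited signals are linear intensities from which the software had taken the background, with no scaling between arrays, and the deposited files also hold flags per spot. No member spot was flagged as an outlier and no spot was saturated (0 spots). Outlying spots were left out, the spots of a probe averaged, the log2 of the background-subtracted signal taken (values at or below 0 left out) and the median of the array over non-control probes subtracted. The level of a gene is the median over its probes. Where the probes of a gene with a detected probe and a printed value disagreed, probe values are given. With 1 group no test between conditions was possible. Named are all genes with a detected probe, and of the comparison lists those chosen with the lists. The members and lists were chosen with earlier results of these data known. The sequence motifs were chosen after the probe and promoter sequences had been looked at. Listed transcripts were named through RefSeq (GRCh38.p14); probe positions are those of GRCh37. Alternatives were another signal and scaling, normexp with an offset of 50 and quantile normalization in limma 3.58.1 (R 4.3.3), other flags and filters and leaving out each array. Statistics were tested on simulated data. Python 3.11.15, pandas 2.3.3 and numpy 2.4.6 were used. The number of arrays, 4, limits the precision.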

Additional observations from a re-analysis of the deposited data

Results flagged for a closer look

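Of 31 sets of 4 values examined for 1 array lying apart, the level of ZMAT2 on replicate 3 was marked, with a gap to its neighbour of 0.876 of the whole range, above Dixon's critical value for 4 values. Its level was 5.38 there and at most 4.99 on the other arrays. Chance marks about 5% of such sets. No clustered protocadherin gene was marked.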

How the results depend on the processing

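No paired analysis was possible because the untreated samples that share replicate numbers with the treated ones were not analysed here. The 9 genes detected on all 4 arrays became 14 (7 gamma) on at least 1 array, 18 (6 beta, 8 gamma) with the laxer flag and 5 (1 gamma) with probes listed for 1 gene, an alternative added after seeing the data, like leaving out the constant-region probes (7). Leaving out each array gave 9 to 10 genes in all, 3 to 3 alpha, 2 to 2 beta and 4 to 5 gamma, PCDHGC4 being added without replicate 3. Genes spanning more than 1.4-fold fell from 3 to 1 with the processed signal scaled to the 75th percentile and to 0 with normexp and quantile normalization, and ran from 1 (without replicate 3) to 3 with 1 array left out. With the processed signal the SD of the mean deviation was 0.093 (alpha), 0.123 (beta) and 0.0999 (gamma). Left-out arrays gave SDs of 0.031 to 0.052 (alpha), 0.040 to 0.083 (beta) and 0.036 to 0.068 (gamma), and a median SD of 0.145 to 0.166. On replicate 3 the constant-region probes lay at 0.29 and 0.21 and the variable ones at -0.16 and -0.099 with the processed signal and with normexp. The 75th percentile lowers all levels by construction (shifts of -2.54 to -2.18 for the 10 detected probes), so levels are not comparable across scalings. With normexp 13 of the 14 levels of genes with any detected probe moved by at least their SD. PCDHB11 at -0.65 became 0.12, PCDHGA12 at -0.29 became 0.34 and the dimmer PCDHGA7 probe at -0.16 became 0.37. The gene levels of PCDHA11 (1.54) and PCDHGA8 (2.89) became -3.72 and -2.92 with the processed signal and 0.39 and 0.90 with normexp, where their variable probes also have values and enter the median. Their constant-region probes alone gave -1.003 and 0.61, and 1.404 and 2.54. Probes unique within a set number of mismatches were not run. Dim signals limit all levels near 0.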
